A study of Mus musculus with 15 samples.

Results

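Kidney fibroblasts collected 7 days after folic acid injury were compared with fibroblasts of uninjured kidney. The comparison took every array titled with folic acid at 7 days (3 arrays) and every array titled as uninjured kidney (3 arrays), 6 of the 15 arrays of the series. Each gene was represented by 1 probe set, the brightest of those whose annotation names that gene alone. This gave 17097 genes, of which 13523 were bright enough to be tested and 3574 were left out as dim. All samples were RNA of PDGFra-positive fibroblasts, sorted by FACS from kidneys of adult C57BL/6 mice, amplified and biotinylated for the arrays. The day 7 group had folic acid-induced acute kidney injury, and the uninjured group had no injury. The folic acid groups at 3 and 14 days (3 arrays each) appear below only where day 7 is set against them. The remaining 3 arrays, of ureteral obstruction, shared in the estimate of the spread. The labels do not say if each array had its own mice or shared a pool. A p-value here reads only how far these arrays lie apart, which may be technical variation.

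Interstitial fibroblasts lie between the tubules and capillaries of the kidney and maintain its thin matrix. After injury many of them take on a myofibroblast state, in which they contract and lay down collagen, and this can end in repair or in scar. Folic acid at a high dose damages the tubule epithelium, and macrophages gather around the damaged tubules while it heals. PDGFRa is a receptor tyrosine kinase on mesenchymal cells, and here it was the handle of the sort.

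Values are log2 intensities, so a difference of 1 is a doubling of intensity. Values are listed in the order array 1, 2 and 3, although the arrays of a group have no order. Differences are day 7 minus uninjured with the standard error (SE), and a gene passed at a Benjamini-Hochberg adjusted p under 0.05 in limma. The array medians lay between 4.93 and 5.06 and the upper quartiles between 6.18 and 6.27, and a fold computed against a dim value is compressed.

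The mesenchymal identity of the sorted RNA was checked on 3 genes. Pdgfra read 4.96, 4.89 and 6.65 at day 7 and 6.43, 5.68 and 5.91 in uninjured kidney, so that several arrays lay close to their median and the groups overlapped (log2 difference -0.51, SE 0.59, adjusted p = 0.633). The related receptor gene Pdgfrb was bright, at 9.42, 9.94 and 10.46 at day 7 and 10.14, 9.76 and 8.68 in uninjured kidney, and also overlapped (0.41, SE 0.36, adjusted p = 0.507). Col1a1 read 6.72 to 6.86 in the uninjured arrays and 11.70 to 12.02 at day 7. The gene of the sort thus ranged from just under the array medians to just above the upper quartiles, while Pdgfrb lay far above the upper quartiles in every array.

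Markers of other kidney cells were also bright, and the day 7 arrays differed in them. The mean of 14 proximal tubule markers was 8.27, 7.17 and 5.57 at day 7 against 8.19, 8.63 and 9.62 in uninjured kidney. Day 7 array 1 therefore stood at the uninjured level of tubule transcripts, and array 3 far below it. The mean of 26 macrophage and dendritic cell markers was 6.61, 7.52 and 7.63 at day 7 against 5.10, 5.15 and 5.13. That of 18 resident fibroblast markers was 7.09, 7.04 and 6.88 against 6.36, 6.18 and 5.96, and the groups did not overlap. The mean of 12 pericyte markers was 6.06, 6.08 and 6.06 at day 7 against 6.44, 6.24 and 6.11, lower at day 7 without overlap. The nearest arrays stood at 6.08 and 6.11, and the median difference of the 12 markers was 0.05, with 6 of them positive. That of 17 endothelial markers was 6.87, 6.51 and 7.11 against 6.75, 6.66 and 6.13, with overlap. Neutrophil (10 markers) and T, B and NK cell markers (18) stayed between 4.61 and 5.18, near the array medians. In such bulk RNA, fewer cells of a type and less RNA per cell cannot be told apart.

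**Figure D1:**
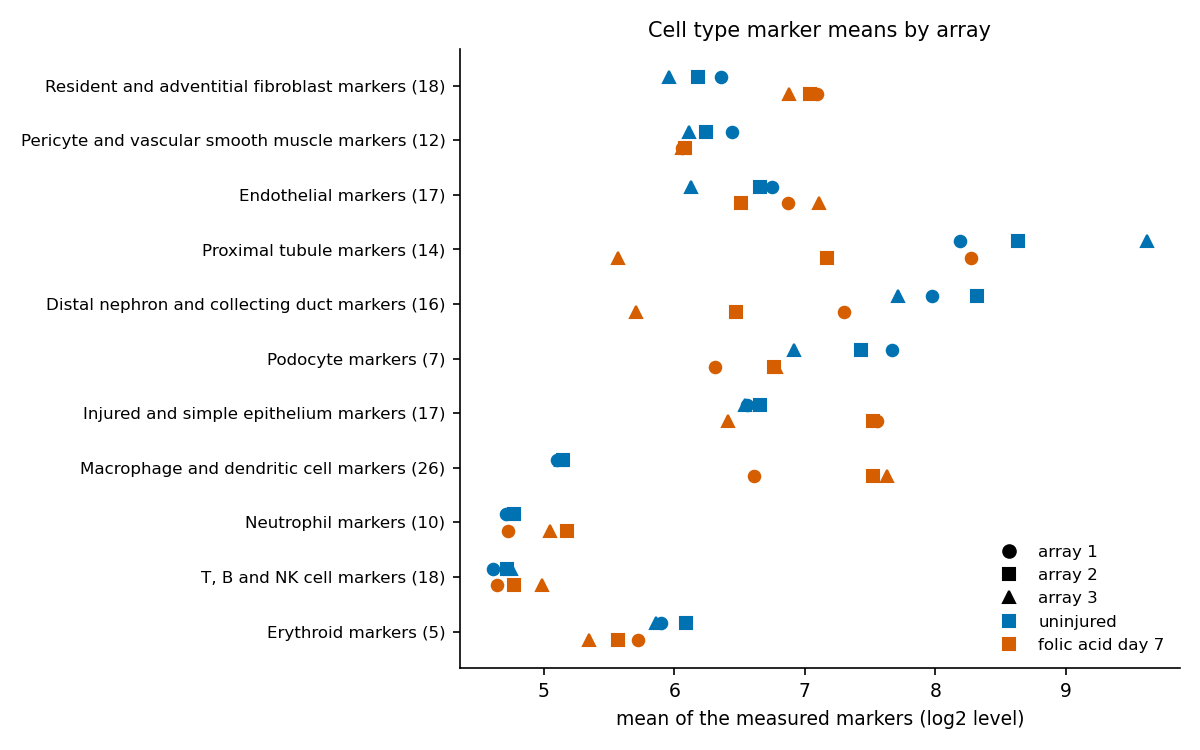
Mean log2 level of the measured markers of each cell type (number of markers in brackets) in the 3 uninjured and 3 day 7 arrays, with the symbol shape giving the array number. Proximal tubule means spread from 5.57 to 8.27 at day 7 against 8.19 to 9.62 in uninjured kidney, while macrophage and dendritic cell means lay between 6.61 and 7.63 against 5.10 to 5.15.

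Of the 13523 genes tested, 1580 passed (11.7%), with 1014 higher (7.5%) and 566 lower (4.19%) at day 7. The rises were larger than the falls. Of the genes that rose, 277 did so by log2 2 or more and 42 by log2 4 or more, while 61 fell by log2 2 or more. The median difference was 1.42 among risen genes, -1.01 among fallen genes and 0.01 over all genes tested. In 1569 of the 1580 the groups did not overlap, which held for 4552 of all genes tested (33.7%). Of the 1014 risen genes, 1011, 1013 and 1013 lay above every uninjured array in day 7 array 1, 2 and 3. These counts follow largely from choosing the genes by a test on the same arrays. The share of passing genes that rose, 64.2%, became 51.6% (897 of 1738) after quantile normalization and 71.9% (1126 of 1565) after centring each array on its median. The count fell to 904 without day 7 array 2 and to 880 and 888 without uninjured arrays 2 and 3. It was 716 with the proximal tubule marker mean as a covariate. It was 17, none of them lower, with the macrophage marker mean as a covariate, on which the groups do not overlap, so that this covariate and the injury cannot be told apart. Unless said otherwise, the genes named below with a test kept their call with any 1 of the 6 arrays left out. Nearly all lost it with the macrophage covariate (10 of 194 kept it).

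**Figure D2:**
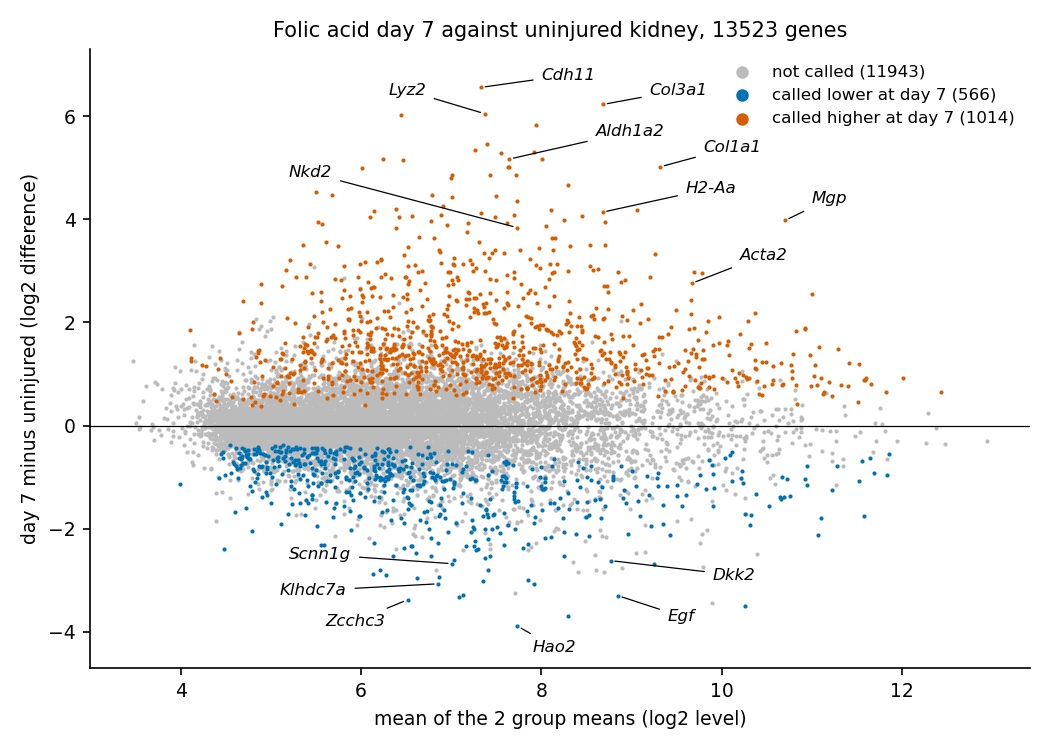
Difference between the day 7 and uninjured means (log2) against the mean of the 2 group means (log2) for the 13523 genes tested, each point a gene, with the 1014 that passed higher in orange and the 566 that passed lower in blue. The rises reach 6.56 for Cdh11 and the falls -3.89 for Hao2.

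The largest rise of all was that of Cdh11, a cadherin that joins mesenchymal cells to one another. It read 10.34, 10.69 and 10.79 at day 7 against 4.36, 4.04 and 3.74 in uninjured kidney, a 94.4-fold difference (log2 6.56, SE 0.28, adjusted p = 5.81e-08). Every uninjured array lay below the array medians and every day 7 array above the upper quartiles. The epithelial Cdh1 (-0.58) and the endothelial Cdh5 (0.16) did not pass. Of 15 tested cadherin and catenin genes Cdh11 was the only riser, a share near the 7.5% over all genes tested. Cdh4 (-0.57) and the catenin Ctnna1 (-0.67) fell. The call of Cdh4 ended without array 1 or 2 of either group (adjusted p up to 0.139) and that of Ctnna1 without any array but day 7 array 3 (adjusted p up to 0.127).

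Fibrillar collagens, the rope-like trimers of interstitial scar, rose in 5 of 8 tested members and none fell (median 2.37, against 0.01 over all genes tested, of which 7.5% rose). Col3a1, the chain of type III collagen, read 11.62, 11.85 and 11.91 at day 7 against 6.11, 6.26 and 4.33, a 74.9-fold difference. Col1a1, the alpha-1 chain of type I collagen, read 11.70, 12.02 and 11.78 against 6.72, 6.85 and 6.86 (32.5-fold, log2 5.02, SE 0.22, adjusted p = 6.27e-08). The regulatory type V chains moved with them, Col5a1 by 3.50 (SE 0.30) and Col5a2 by 3.87 (SE 0.44). The probe set that stands for Col1a2, the partner chain of Col1a1, had a difference of 0.34 and did not pass. It read 3.81 to 4.90 at day 7 and 3.71 to 4.05 in uninjured kidney, below the array medians, and it was singled out after its values were seen.

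The collagens that link and decorate these fibrils rose in 9 of 10 tested members (median 3.13). Col6a1 and Col6a2, subunits of the beaded type VI microfibrils around cells, rose 39.0-fold and 29.1-fold. Col6a1 read 9.75, 10.21 and 10.62 against 5.06, 5.26 and 4.40. Col15a1, a basement membrane zone collagen, read 10.17, 10.89 and 10.65 against 5.25, 5.79 and 4.79 (log2 5.30, SE 0.32, adjusted p = 1.17e-06). Its relative Col18a1, the source of endostatin, rose by 2.83 (SE 0.28), and the fibril-associated Col14a1 by 3.30 (SE 0.46). Col12a1, at 0.30, was the member that did not pass. With the tubule covariate 9 of the 10 passed as well.

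Fibrillar collagen is folded in the endoplasmic reticulum, trimmed outside the cell and then crosslinked. In that machinery 9 of 19 tested genes rose and none fell (median 1.25). Serpinh1, the collagen chaperone HSP47, read 11.24, 11.28 and 11.00 against 8.82, 8.39 and 7.41 (log2 2.97, SE 0.34, adjusted p = 0.000179). Crtap, part of the proline 3-hydroxylation complex, rose 4.27-fold. Of the lysyl oxidases, which crosslink collagen and elastin, Loxl1 read 8.82, 9.60 and 10.10 against 4.82, 5.56 and 6.02 (log2 4.04, SE 0.45), and Lox rose by 3.63 (SE 0.59). Loxl2 (2.53) and Loxl3 (1.42) rose too, the latter not without uninjured array 3 (adjusted p = 0.0513), and Loxl4 (0.15) did not pass. With the tubule covariate 4 of the 19 passed.

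Elastic fibres are laid on a scaffold of fibrillin microfibrils. Of 14 elastic fibre and microfibril genes 8 rose (median 2.05). Mfap4, a microfibril-associated glycoprotein, read 10.01, 9.47 and 8.82 against 4.59, 5.11 and 4.00, a 29.2-fold difference. Ltbp2, a fibrillin-binding protein, read 9.82, 9.24 and 9.14 against 4.83, 4.46 and 4.49 (27.9-fold, log2 4.80, SE 0.34, adjusted p = 5.55e-06). Fbn2, a fibrillin, rose 12.5-fold. Elastin itself (Eln, 0.96) did not pass. For Fbln1, which rose by 2.62, another probe set of the gene fell by 0.64 (adjusted p = 0.0412), so its 2 probe sets disagree.

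Matricellular proteins, which tune adhesion and growth factor access, gave 8 risers among 14 tested genes with fibronectin (median 1.98). Fn1, fibronectin, read 9.69, 10.37 and 10.54 against 6.13, 6.24 and 5.70 (18.1-fold, log2 4.18, SE 0.33, adjusted p = 1.41e-05). Mgp, an inhibitor of calcification, read 12.58, 12.74 and 12.75 against 9.02, 9.48 and 7.65. Thbs2, an inhibitor of angiogenesis, rose by 2.97 (SE 0.38), and Tnc, tenascin-C, by 2.99 (SE 0.57). Postn, periostin, split the day 7 arrays: it read 7.84 and 7.79 in arrays 1 and 2 and 5.51 in array 3, against 4.98, 5.15 and 4.75 (log2 2.09, SE 0.85, adjusted p = 0.136). Every day 7 array lay above every uninjured one, but the gene did not pass. The matricellular TGF-beta target Ccn2 stood at -0.50 and did not pass.

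Small leucine-rich proteoglycans, which bind collagen fibrils and set their width, rose in 4 of 8 tested members (median 1.82). Dcn, decorin, read 9.29, 10.35 and 10.16 against 6.88, 6.51 and 5.51 (12.4-fold). Prelp rose 15.1-fold and Ogn, osteoglycin, 11.1-fold. Bgn, biglycan, was already bright in uninjured kidney at 10.61, 10.16 and 8.96 and reached 11.52, 11.79 and 11.93 (3.57-fold). Among 14 basement membrane genes 9 rose and 1 fell (median 1.09). Smoc2, a calcium-binding matrix protein, rose by 4.16 (SE 0.64), the laminin chain Lama2 by 2.47 (SE 0.41) and Col4a2 by 2.03 (SE 0.34). Col4a3, a chain of the glomerular and tubular basement membrane, fell by 1.89 (SE 0.37), with 7.55, 6.79 and 6.58 against 8.54, 8.69 and 9.35. The call of Col4a3 ended with the mean of its probe sets (-1.03, adjusted p = 0.055). The risers of this group numbered 4 without day 7 array 2, day 7 array 3 or uninjured array 3, 5 without uninjured array 2 and 4 after quantile normalization.

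**Figure D3:**
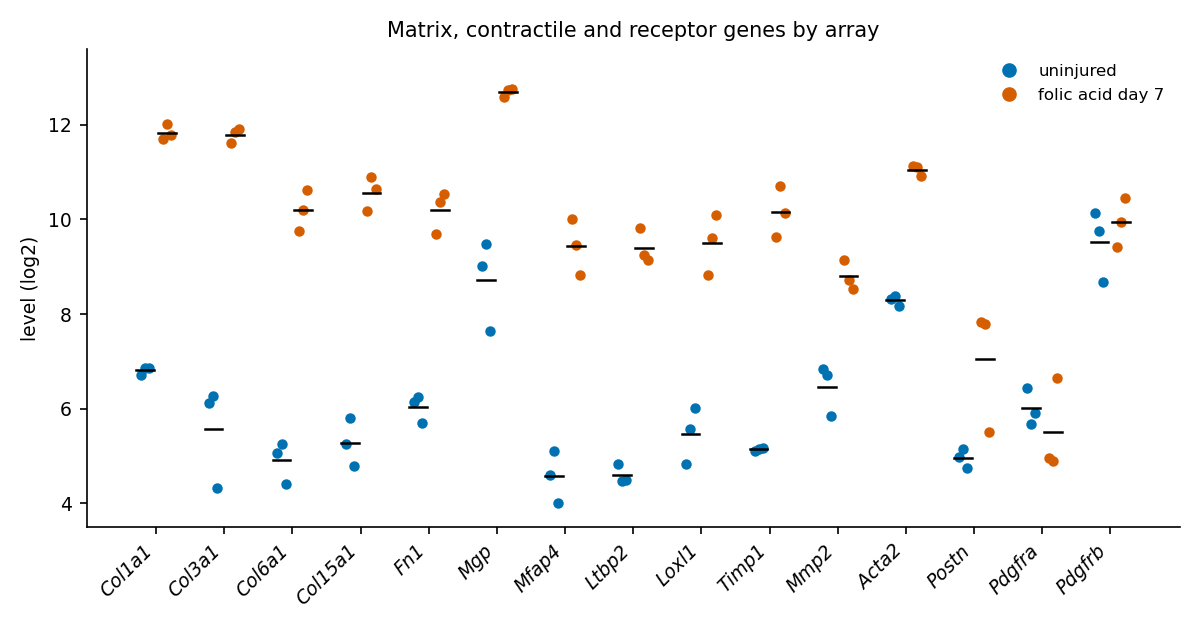
Log2 level of matrix, contractile and receptor genes in each uninjured (blue) and day 7 (orange) array, with a bar at each group mean. Col1a1, Fn1 and Timp1 form separate clusters, Postn is split at day 7 (5.51 to 7.84), and Pdgfra and Pdgfrb overlap.

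Genes that remodel matrix rose with those that build it. Of 12 matrix metalloproteinase and TIMP genes 9 rose (median 1.84). Timp1, an inhibitor of metalloproteinases, read 9.62, 10.70 and 10.13 against 5.11, 5.14 and 5.17, a 32.2-fold difference (log2 5.01, SE 0.38, adjusted p = 8.5e-06). Mmp2, gelatinase A, read 9.14, 8.72 and 8.53 against 6.83, 6.71 and 5.85 (5.05-fold). Mmp14, the membrane protease that activates it, rose 4.89-fold, and Mmp19 rose 4.09-fold. In the plasminogen and serpin group 5 of 10 rose, among them Serpinf1, the antiangiogenic factor PEDF, by 4.04 (SE 0.51) and Thbd, thrombomodulin, by 3.11 (SE 0.39). Plau, the urokinase gene, fell by 1.17 (SE 0.27), a call that ended without uninjured array 1 (adjusted p = 0.0583) or array 2 (adjusted p = 0.0574).

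Myofibroblasts pull on their matrix through bundles of actin and myosin. Acta2, the smooth muscle actin that defines myofibroblasts, read 11.13, 11.10 and 10.92 against 8.31, 8.39 and 8.16 (6.79-fold, log2 2.76, SE 0.23, adjusted p = 1.7e-05). The day 7 arrays lay close together. The tropomyosin Tpm4 rose by 2.60 (SE 0.48) and the actin crosslinker Actn1 by 1.81 (SE 0.31). In this list 6 of 17 rose and 1 fell (median 0.69). The one that fell was Myh11, the myosin of differentiated smooth muscle (-1.89, SE 0.55, adjusted p = 0.0441), and its call ended without any 1 of the 6 arrays (adjusted p up to 0.158). Desmin (Des, -0.06), the smooth muscle calponin Cnn1 (0.18) and the myosin light chain Myl9 (-0.16) did not pass, and in each the groups overlapped. Among 12 pericyte and vascular smooth muscle markers none rose and Myh11 was the only one that fell.

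The markers that define stromal subsets did not move one way. Of 17 resident and adventitial fibroblast genes 5 rose and 1 fell (median 0.25). The one that fell was Nt5e, the ectonucleotidase CD73 (-1.51), and its call ended without day 7 array 2 or 3 or uninjured array 1 or 2 (adjusted p up to 0.0935). The risers included Thy1, a surface glycoprotein of fibroblasts, which read 8.53, 9.54 and 8.63 against 4.86, 5.02 and 5.14 (14.8-fold). Cygb, cytoglobin, read 8.79, 9.83 and 10.46 against 6.23, 6.33 and 6.18 (10.9-fold). Of 23 stromal transcription factor genes 5 rose and 1 fell (median 0.52), and 3 rose without day 7 array 2 or uninjured array 3. Tcf21, a transcription factor of renal stroma that podocytes also carry, read 9.50, 10.04 and 9.67 against 5.48, 6.02 and 5.45 (17.0-fold, log2 4.09, SE 0.45, adjusted p = 0.000143). Runx1, a transcription factor of blood and of activated mesenchyme, read 7.98, 7.79 and 7.71 against 4.60, 4.22 and 4.97 (9.39-fold). Cd34 (-0.10), Gli1 (-0.06) and Pi16 (-0.03), which mark perivascular and adventitial cells, did not pass.

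A smaller set of genes known from stroma was bright in uninjured kidney and fell. Nr2f1, an orphan nuclear receptor, read 9.26, 8.56 and 7.69 in uninjured kidney and 6.03, 5.75 and 6.53 at day 7 (5.28-fold lower, log2 -2.40, SE 0.40, adjusted p = 0.00221). The chemokine gene Cxcl13 went from 9.45, 8.90 and 7.75 to 7.02, 5.29 and 6.19 (5.80-fold lower). The secreted Wnt antagonist gene Dkk2 went from 10.74, 10.14 and 9.35 to 6.85, 7.84 and 7.67 (6.16-fold lower, log2 -2.62, SE 0.49). The integrin gene Itga4 fell by 2.00 (SE 0.42), and Agtr1a, the angiotensin II receptor gene, went from 9.89, 9.42 and 8.86 to 7.67, 7.47 and 7.83 (3.32-fold lower, adjusted p = 0.000797). In all 5 genes every day 7 array lay below every uninjured one, and groups did not overlap in 1569 of the 1580 passing genes. The day 7 array nearest the uninjured level was array 3 for Nr2f1 and Agtr1a, array 2 for Dkk2 and array 1 for Cxcl13. In the uninjured group array 3, the one with the most tubule signal, was the lowest for all 5. With the tubule covariate the 5 differences were -3.02 for Nr2f1, -2.74 for Cxcl13, -3.30 for Dkk2, -2.43 for Itga4 and -2.07 for Agtr1a, and all 5 passed (adjusted p up to 0.0211). What part the tubule share had in these 5 falls was otherwise not tested.

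In TGF-beta and BMP signalling, ligands bind serine kinase receptors that act through SMAD proteins. Of 20 TGF-beta and activin genes 6 rose and none fell (median 0.75): the induced adhesion protein Tgfbi rose 17.0-fold, the receptor Tgfbr2 by 1.39, the SMAD inhibitor Skil by 2.29 and the follistatin-like Fstl1 by 2.16. Tgfbi read 8.70, 9.01 and 9.08 against 4.78, 5.01 and 4.74. The other 2 risers were the receptor Tgfbr1 (1.64), whose call ended without day 7 array 2 or 3 or uninjured array 1 or 2 (adjusted p up to 0.0764), and the ligand Tgfb3 (1.38), whose call ended without day 7 array 2 or any uninjured array (adjusted p up to 0.0934). The ligand Tgfb1 (1.31) did not pass. Of 16 BMP genes, Id3, a target, rose (1.69) and Bmp7, an epithelial ligand, fell (-1.07), and the other 14 did not pass. These shares were near the 7.5% and 4.19% of all genes tested that rose and fell. The call of Bmp7 ended with the mean of its probe sets (-0.41, adjusted p = 0.118) and that of Id3 with the 6 arrays alone (adjusted p = 0.0643).

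Wnt genes moved in both directions, with 8 of 25 higher and 2 lower (median 0.52). Nkd2, an intracellular inhibitor of Wnt signalling, read 9.33, 10.26 and 9.37 against 5.58, 5.86 and 5.98 (14.4-fold, log2 3.84, SE 0.26, adjusted p = 3.34e-06). The secreted antagonist Frzb rose 15.6-fold, and the antagonist Dkk3 by 2.47, while Dkk2 and Sfrp2 fell (-2.62 and -2.12). Sfrp2 stayed bright, at 10.56, 9.36 and 10.08 against 12.44, 12.20 and 11.74, and its call ended without any array but day 7 array 1 (adjusted p up to 0.122). The receptor Fzd1 rose by 1.97 (SE 0.29), and Ccn4, a Wnt-induced matricellular gene, 7.91-fold. The ligands Wnt4 (3.11) and Wnt5a (1.72) and the antagonist Sfrp1 (2.05) rose too, but not without day 7 array 2 or any uninjured array (adjusted p up to 0.0826, 0.0813 and 0.0795). The number of risers was 4 without day 7 array 2 or without any 1 uninjured array, and 1 gene fell in each of these cases.

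Growth factors showed opposed members. Of 14 FGF genes 2 rose and 3 fell. Fgf9, an epithelial and mesenchymal ligand, went from 7.21, 7.49 and 7.15 to 6.17, 4.55 and 4.30 (4.83-fold lower), while Fgf2, basic FGF, went from 4.53, 4.67 and 4.56 to 7.18, 7.39 and 8.72 (9.04-fold higher, adjusted p = 0.0203). The call of Fgf2 ended without day 7 array 3 or any uninjured array (adjusted p up to 0.068). Of these 5 FGF calls 3 were left without day 7 array 2, day 7 array 3 or uninjured array 2, and 2 without uninjured array 1 or 3. Igf1 rose by 1.57 (SE 0.32). Its receptor gene Igf1r (-1.63) fell, and that call ended without day 7 array 1 or uninjured arrays 2 or 3 (adjusted p up to 0.0825). Of 6 PDGF genes the receptor-like Pdgfrl alone passed (1.28). Of 12 retinoid genes 2 rose and none fell, with a list median of 0.19, where 7.5% of all genes tested rose. The larger rise was that of Aldh1a2, which makes retinoic acid. It read 9.92, 10.23 and 10.56 against 5.12, 5.22 and 4.85 (36.0-fold, log2 5.17, SE 0.22, adjusted p = 5.81e-08). Its paralog Aldh1a1 lay at 3.50, 3.90 and 3.47 at day 7, below the array medians in both groups.

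Hedgehog (13 genes) and Notch (11 genes) gave no gene that passed, and their medians were -0.06 and -0.10. The closest to passing were Shh (0.54, adjusted p = 0.0694) and the Notch ligand gene Jag1 (-0.54, adjusted p = 0.0911). Shh passed without day 7 array 3 (adjusted p = 0.02) and Jag1 without day 7 array 1 (adjusted p = 0.0449). Of 35 cell cycle and replication genes none rose, and Ccnd1, cyclin D1, fell by 1.49 (SE 0.18, adjusted p = 0.000218), from 8.60, 8.52 and 8.25 to 7.30, 6.94 and 6.65. It was the only one that fell, a share near the 4.19% over all genes tested. The proliferation marker Mki67 read 6.91, 6.80 and 7.51 against 6.53, 6.13 and 6.09 (0.83, SE 0.75, adjusted p = 0.524). The cyclin-dependent kinase inhibitor Cdkn1b rose by 1.17 (SE 0.21). A miss of the threshold with 3 arrays a group does not show that these levels were equal.

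Chemokines draw leukocytes, and alarmins call them from damaged cells. Of 24 chemokine genes with Il33, 10 rose and 1 fell (median 0.82). Il33, a nuclear alarmin of stromal cells, read 8.25, 9.13 and 9.76 against 3.82, 3.79 and 4.07 (35.6-fold, log2 5.15, SE 0.43, adjusted p = 1.73e-05). Cxcl14 read 9.38, 10.73 and 10.31 against 5.19, 4.92 and 5.24 (32.5-fold). The membrane-bound chemokines Cx3cl1 and Cxcl16 rose by 3.14 (SE 0.35) and 2.48 (SE 0.35), and Cxcl13 was the one that fell. Ccl2, the monocyte chemokine, read 5.27, 7.85 and 6.45 against 4.82, 5.46 and 5.54, with overlapping groups (1.25, SE 0.61, adjusted p = 0.207). Osmr, the oncostatin M receptor gene, rose by 2.97 (SE 0.64), and this call ended without uninjured array 3 (2.50, adjusted p = 0.051).

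Macrophage transcripts rose in the same arrays. Of the 25 markers of macrophages and dendritic cells that could be tested 13 rose, and no marker fell (median 1.76). Of the 26 measured, 19, 25 and 24 lay above the array median at day 7 and 10, 12 and 13 in uninjured kidney. Lyz2, lysozyme, read 10.11, 10.41 and 10.66 against 3.17, 3.96 and 5.90 (66.4-fold), and Tyrobp, the adaptor of myeloid receptors, 9.00, 10.38 and 10.20 against 4.40, 5.63 and 4.96 (29.1-fold). Ctss, the lysosomal protease that trims the invariant chain, rose 36.3-fold. Csf1r (0.56), Cx3cr1 (0.11), Itgax (-0.03) and Flt3 (-0.04), which define macrophage and dendritic lineages, did not pass. Ptprc, the pan-leukocyte gene, read 5.79, 6.93 and 9.02 against 3.97, 4.17 and 5.01 (2.87, SE 0.87, adjusted p = 0.0518). It passed in 7 other settings, among them without day 7 array 1 (3.59, adjusted p = 0.0234) and after quantile normalization (2.90, adjusted p = 0.0461). The rest were median centring, the trend, array weights, the 60th percentile filter and the mean of probe sets. With any other array left out Ptprc did not pass. None of 10 T, B and NK markers or 6 neutrophil markers passed.

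Complement followed these genes in part. Of 17 complement genes 9 rose and none fell (median 0.97). C1qa, C1qb and C1qc, the chains of the recognition protein C1q, which macrophages make, rose by 3.09, 4.26 and 4.46. C1qc read 8.71, 10.34 and 10.14 against 5.20, 5.25 and 5.35, so that array 1, the lowest of the day 7 arrays in the macrophage mean, was also the lowest here. Cfp, properdin, rose by 1.45 (SE 0.26). Serping1, the C1 inhibitor gene, read 10.49, 11.00 and 11.29 against 8.24, 7.46 and 7.09 (10.0-fold, adjusted p = 7.56e-05). The complement risers numbered 5 without day 7 array 2 or uninjured array 2 or 3. Lysosomal genes rose in 8 of 19 cases (Ctsc by 2.98, Ctsd by 1.73) and Grn, progranulin, fell by 0.68. The call of Grn ended with the mean of its probe sets (-0.08, adjusted p = 0.862) and with the 6 arrays alone (adjusted p = 0.052). Of 18 interferon response genes 2 rose, Gbp2 (2.21) and Irf8 (1.55), a share near the 7.5% of all genes tested that rose. The call of Irf8 ended without any array but day 7 array 1 (adjusted p up to 0.0908). The mean of the macrophage markers, 6.61, 7.52 and 7.63 against 5.10, 5.15 and 5.13, was higher at day 7 like the risers among these genes, and its part in them was not tested beyond the covariate.

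MHC class II proteins are alpha and beta chains that load peptides in endosomes, guarded until then by the invariant chain Cd74, and show them to CD4+ T cells. H2-Aa, the alpha chain of I-A, read 10.72, 10.80 and 10.74 at day 7 against 6.45, 6.57 and 6.81 (17.7-fold, log2 4.14, SE 0.17, adjusted p = 5.81e-08). Its beta chain H2-Ab1 read 9.39, 9.41 and 8.78 against 5.48, 5.58 and 6.28 (10.7-fold). H2-Eb1, the beta chain of I-E, read 9.55, 9.81 and 9.41 against 6.60, 6.72 and 6.61 (7.70-fold), and Cd74 read 10.27, 10.08 and 9.84 against 6.50, 6.72 and 6.48 (11.3-fold). Array 1, the lowest of the day 7 arrays in the macrophage mean, was the highest for Cd74 and the lowest for H2-Aa. For H2-Ab1 and H2-Eb1 it lay between the other day 7 arrays. Class II calls numbered 5 of 12 (median 1.08), the fifth being Ctss. The transactivator gene Ciita (-0.46) and the peptide editors H2-DMa (1.02) and H2-DMb1 (1.15) did not pass. In the class I list of 11 genes Tapbp, tapasin, alone rose (1.14), a share near the 7.5% over all genes tested. The heavy chains H2-K1 (-0.82) and H2-D1 (-0.58) did not pass. With the macrophage mean as a covariate H2-Aa still passed (3.96, adjusted p = 0.000759), and H2-Eb1 (2.13, adjusted p = 0.0523), Cd74 (3.08, adjusted p = 0.126) and H2-Ab1 (2.23, adjusted p = 0.267) did not.

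The promoters of the class II genes carry a known set of boxes, of which the Y box is an inverted CCAAT. Those of H2-Aa and H2-Eb1 are printed to show where it lies. The windows are the 250 bases before the start of each gene in RefSeq on GRCm38.p6, written in the direction of the gene, and capitals mark matches to the letters searched. H2-Aa lies at chr17:34287824-34288073 on the minus strand, H2-Eb1 at chr17:34305617-34305866 on the plus strand and Col3a1, shown as a matrix gene for contrast, at chr1:45311288-45311537 on the plus strand.
H2-Aa: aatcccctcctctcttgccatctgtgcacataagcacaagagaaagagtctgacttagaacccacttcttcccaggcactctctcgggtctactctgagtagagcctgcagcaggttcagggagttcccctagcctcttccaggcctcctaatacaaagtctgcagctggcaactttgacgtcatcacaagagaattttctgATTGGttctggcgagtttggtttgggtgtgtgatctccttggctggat
H2-Eb1: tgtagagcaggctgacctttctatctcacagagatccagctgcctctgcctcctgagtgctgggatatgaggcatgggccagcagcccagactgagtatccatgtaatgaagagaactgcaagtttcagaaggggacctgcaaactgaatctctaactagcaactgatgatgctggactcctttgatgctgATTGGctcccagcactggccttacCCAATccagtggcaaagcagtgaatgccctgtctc
Col3a1: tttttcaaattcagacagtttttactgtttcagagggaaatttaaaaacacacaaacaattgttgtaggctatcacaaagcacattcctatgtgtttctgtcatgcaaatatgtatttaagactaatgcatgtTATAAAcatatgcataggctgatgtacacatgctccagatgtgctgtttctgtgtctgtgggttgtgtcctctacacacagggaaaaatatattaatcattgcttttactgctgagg
CCAAT was found on the reverse strand (ATTGG) of H2-Aa at bases -48 to -44, and in H2-Eb1 on the reverse strand at -59 to -55 and on the forward strand at -35 to -31. In Col3a1 the letters TATAAA lie at -117 to -112. CCAAT is held by 33.8% and TATAAA by 12.4% of the 32851 windows of 27025 genes in the table, on either strand. No match to TGANTCA (6.75% of windows), GGGCGG (32.7%) or the strict CArG box (1.47%) was found in these 3 windows. The strict box allows only A or T between CC and GG. None of the 5 strict patterns was found in the window of Acta2. That window does hold near matches to the CArG box, such as ccctatatgg, which the search did not count. A match is a description of letters and no evidence of a bound site. H2-Ab1, Cd74 and Col1a1, though planned, were not analysed in this way.

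Epithelial genes were lower at day 7, but unevenly between arrays. Of 16 distal nephron and collecting duct markers 8 fell and none rose (median -1.28). Scnn1g, a subunit of the epithelial sodium channel, read 8.40, 8.23 and 8.41 in uninjured kidney and 6.54, 5.46 and 5.00 at day 7 (6.40-fold lower, log2 -2.68, SE 0.36, adjusted p = 0.000512). Aqp3, a water channel of the collecting duct, went from 7.64, 8.21 and 7.34 to 5.55, 5.47 and 5.18 (5.02-fold lower), and the potassium channel gene Kcnj1 from 8.81, 8.98 and 8.47 to 7.31, 6.55 and 5.44. Slc4a1, the anion exchanger of acid-secreting and red cells, fell by 1.71 (SE 0.34). The number that fell was 5 without day 7 array 3 or uninjured array 2. With the tubule covariate 2 of the 16 passed, and Scnn1g was one of them (-2.05).

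The proximal tubule list had the lowest median of the cell types, -1.91, but 2 of its 14 members passed, the water channel Aqp1 (-2.53) and the protein uptake receptor Cubn (-2.29). None passed without day 7 array 2, day 7 array 3 or uninjured array 3, 1 passed without uninjured array 1 or 2, and 8 passed without day 7 array 1. Each of the 6 arrays thus moved the count. Hao2, a peroxisomal hydroxyacid oxidase of proximal tubule, read 9.01, 9.39 and 10.65 in uninjured kidney and 8.40, 5.58 and 3.41 at day 7 (14.8-fold lower, log2 -3.89, SE 1.09, adjusted p = 0.0369). G6pc, the last enzyme of glucose release, read 7.98, 8.20 and 10.05 against 7.86, 4.42 and 3.98 at day 7, and Egf, made by the distal tubule, 10.51, 11.06 and 9.92 against 9.72, 6.39 and 5.49. In each of these genes array 1 lay close under the uninjured arrays and arrays 2 and 3 several units below. The calls of Hao2, G6pc and Egf ended without any array but day 7 array 1, with adjusted p up to 0.131, 0.142 and 0.14. With the tubule covariate they stood at -1.09, -1.02 and -1.40 and did not pass. The part of the tubule share of the RNA in these falls was otherwise not tested.

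Other genes fell to a like extent in the day 7 arrays. Klhdc7a, a kelch domain gene, went from 7.85, 8.40 and 8.91 to 5.74, 4.93 and 5.28 (8.40-fold lower, log2 -3.07, SE 0.36, adjusted p = 0.000185). Zcchc3, a nucleic acid sensor of innate immunity, went from 8.44, 7.96 and 8.21 to 3.36, 5.73 and 5.38 (10.4-fold lower, log2 -3.38, SE 0.67). Array 1 was the lowest of the day 7 arrays in Zcchc3 and the highest in Klhdc7a. With the tubule covariate the differences of Klhdc7a and Zcchc3 were -2.55 and -3.51, and both passed. What part the tubule share had in them was otherwise not tested.

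Metabolic genes fell in smaller numbers. Of 31 respiratory chain and ATP synthase genes 5 fell and none rose (median -0.53). Sdha, the flavoprotein of complex II, went from 11.14, 11.22 and 11.58 to 10.23, 9.48 and 9.55 (2.95-fold lower, adjusted p = 0.00141) and passed with any 1 array left out and with the tubule covariate (-1.07). Ndufb9, of complex I, fell by 1.38 (SE 0.37), a call that ended without any array but day 7 array 1 (adjusted p up to 0.0966). The list's count was 2, 1, 1, 1 and 2 without day 7 array 2, day 7 array 3 and uninjured arrays 1, 2 and 3, and 8 without day 7 array 1. Of 25 fatty acid and peroxisome genes 4 fell, among them the dehydrogenase Acadvl (-1.10, not without uninjured array 3, adjusted p = 0.0632) and the lipid-sensing receptor Ppara (-2.38, not without day 7 array 3 or uninjured array 3, adjusted p up to 0.069). The carnitine acetyltransferase Crat rose (0.84), but not without day 7 array 2 or uninjured array 1 or 3 (adjusted p up to 0.0749). The number that fell was 2 without day 7 array 2 or 3, 0 without uninjured array 3 and 7 without day 7 array 1. Of 18 genes of gluconeogenesis and amino acid breakdown 4 fell (median -1.10), and 1 without day 7 array 2, day 7 array 3, uninjured array 2 or uninjured array 3. Hpd, of tyrosine breakdown, kept its call with any array left out, at 6.54, 7.37 and 8.90 in uninjured kidney and 5.60, 4.41 and 4.42 at day 7. The proximal tubule means of these arrays were 8.19, 8.63 and 9.62 in uninjured kidney and 8.27, 7.17 and 5.57 at day 7. With that mean as a covariate the medians of the 3 metabolic lists were 0.15, 0.06 and 0.17. The mean takes in metabolic genes such as Pck1 and was below every uninjured array in day 7 arrays 2 and 3. These medians therefore cannot tell tubule share and injury apart.

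Of the markers of injured epithelium 3 of 16 rose. Havcr1, KIM-1, the surface receptor of injured proximal tubule, read 11.04, 9.50 and 7.12 at day 7 against 4.95, 4.77 and 4.64 (21.6-fold, log2 4.43, SE 0.85, adjusted p = 0.00556). The order of the day 7 arrays was that of their proximal tubule means, and every uninjured array was low. Lcn2, the secreted injury marker NGAL, read 7.86, 8.94 and 7.56 against 4.16, 4.07 and 3.99 (16.5-fold). Clu, clusterin, rose by 0.97 (SE 0.20), and the other 13 did not pass. Without day 7 array 3, 5 of the 16 passed. The epithelial adhesion genes Cdh1 (-0.58) and Epcam (-0.89) did not pass, and Epcam was low in day 7 array 3 only (8.09, 8.29 and 5.72 against 8.11, 8.61 and 8.04). Of 7 podocyte markers, Nphs1, nephrin (-1.08), Podxl, podocalyxin (-1.56), and Wt1 (-1.59) fell. The call of Wt1 ended without array 1 or 2 of either group (adjusted p up to 0.114). Kirrel (1.38) rose, but not without any array but uninjured array 1 (adjusted p up to 0.155).

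Of 19 oxidative stress genes 4 rose. Mt1, a metallothionein, read 10.57, 10.92 and 11.56 against 8.73, 9.13 and 8.89 (4.28-fold, adjusted p = 0.000164), and the peroxidases Gpx7 (2.88) and Prdx4 (2.51), both of the secretory pathway, rose as well. Of 22 unfolded protein response genes 2 rose, Xbp1 (1.84) and Canx (0.81), a share near the 7.5% of all genes tested that rose, with a list median of -0.14. The call of Xbp1 ended without day 7 array 2 or uninjured array 2 or 3 (adjusted p up to 0.0659) and that of Canx without array 1 or 2 of either group (adjusted p up to 0.0651). Of 18 immediate early genes, which cell dissociation can also induce, Egr2 (2.99), Fosl2 (2.36) and Myc (1.35, not with the 6 arrays alone, adjusted p = 0.0646) rose, while Fos (1.12), Jun (0.65) and Atf3 (-0.11) did not pass. Of the steroid- and drug-handling P450 genes Cyp1b1, an enzyme of stromal cells, rose 8.50-fold, whereas the tubular Cyp2j5 fell (-3.07) and lost its call without any array but day 7 array 1 (adjusted p up to 0.164).

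**Figure D4:**
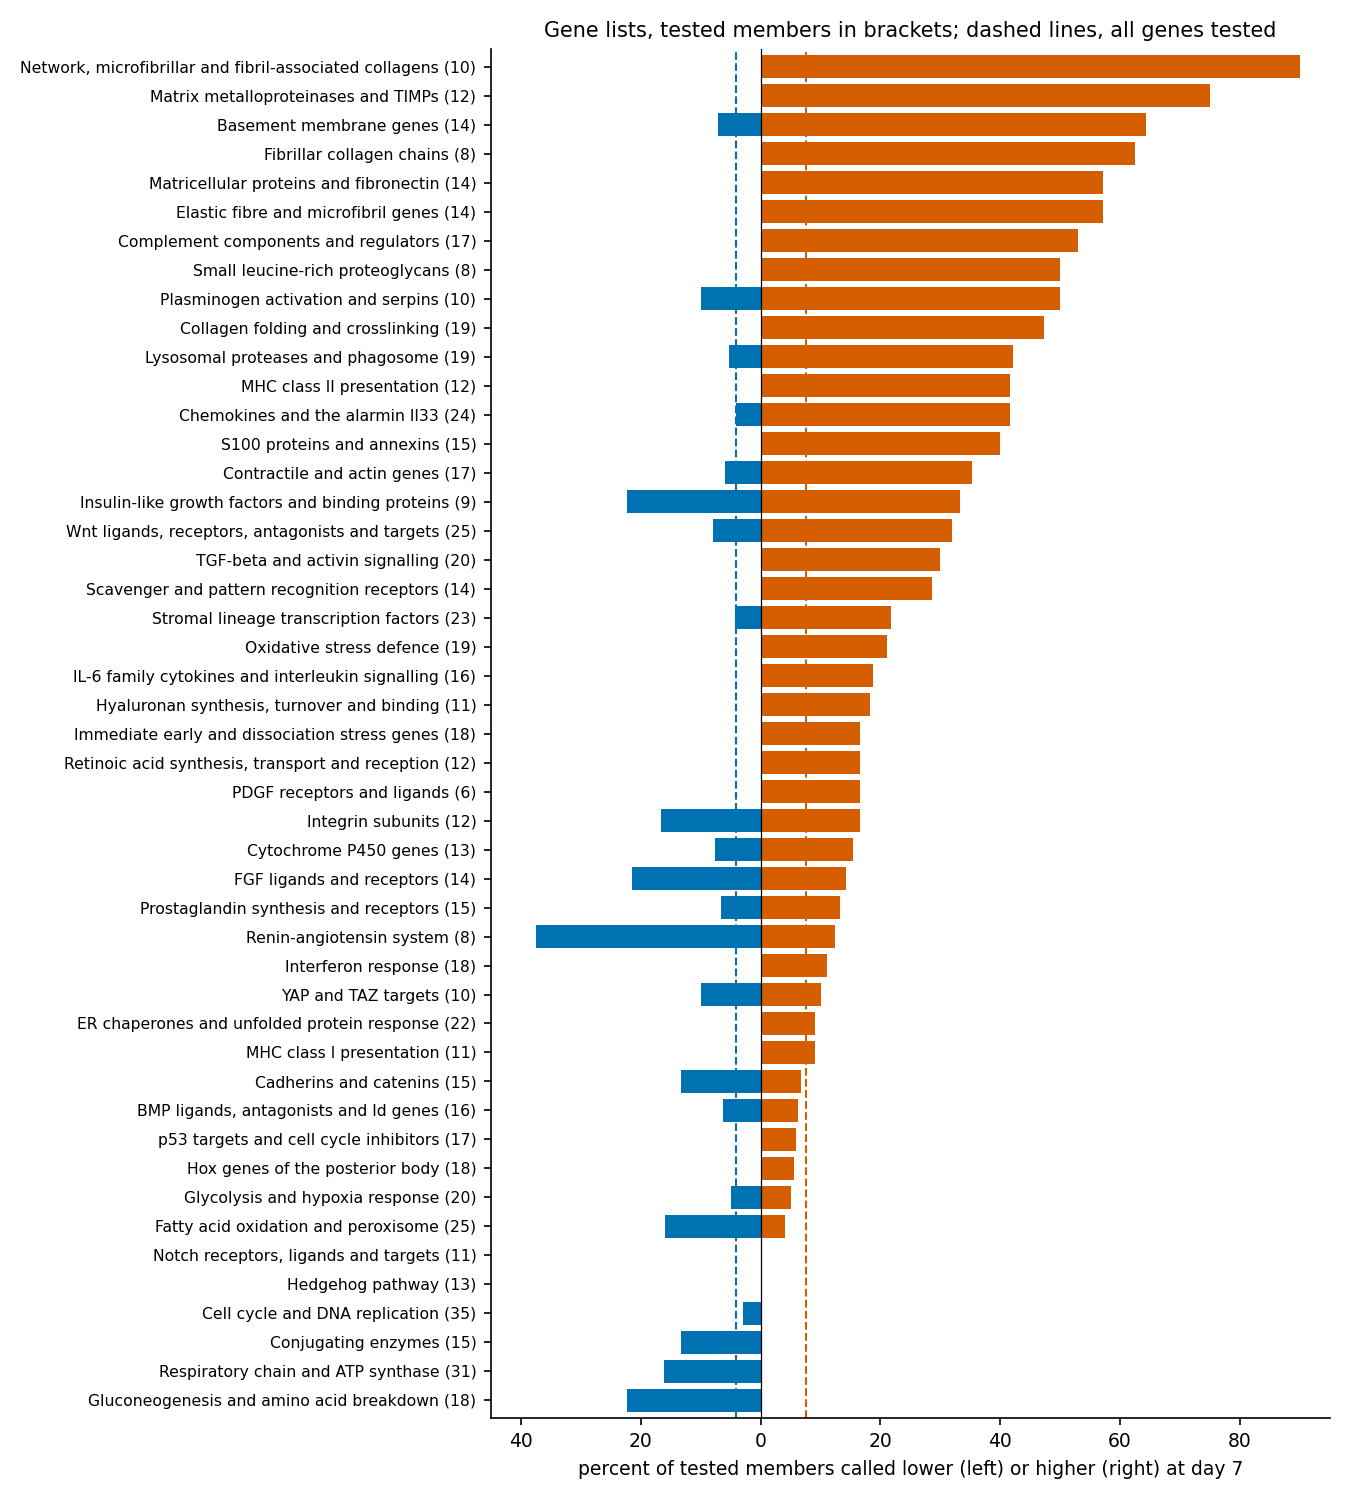
Percent of the tested members of each gene list (number in brackets) that passed higher (orange, right) or lower (blue, left) at day 7 against uninjured kidney, with dashed lines at the shares over all 13523 genes, 7.5% higher and 4.19% lower. Matrix lists stand at the top, with 9 of 10 network collagens higher, and metabolic lists at the bottom.

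Setting day 7 directly against day 3 asked which levels differed between the days, with the spread estimated over all 15 arrays. Of 13523 genes 94 passed (0.695%), with 37 higher (0.274%) and 57 lower (0.422%) at day 7, and 16 passed with the spread of the 6 arrays compared alone. The day 3 and uninjured comparisons share the day 7 arrays. Class II genes were among the risers: H2-Aa read 7.11, 7.29 and 7.18 at day 3 (difference 3.56, SE 0.17, adjusted p = 7.22e-07), Cd74 was higher at day 7 by 4.07, H2-Ab1 by 3.96 and H2-Eb1 by 3.31. Every day 3 array of H2-Aa lay below every day 7 array. Ly86, a partner of a Toll-like receptor homologue on myeloid and B cells, was higher by 3.52, and in the class II list 5 of 12 genes and in the macrophage list 4 of 25 were higher than at day 3. These 4 class II differences and that of Ly86 passed with any 1 of the 6 arrays left out. The macrophage covariate left H2-Aa (3.42, adjusted p = 0.00208) and the other 3 class II genes past the threshold and not Ly86 (2.06, adjusted p = 0.0968). That covariate is itself a mean of myeloid genes such as Ctss, so the lost call of a myeloid gene cannot be read further.

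No collagen passed between these days: the medians of the fibrillar and network lists were -0.36 and -0.07, and Col1a1 stood at -0.22 (adjusted p = 0.799). A few matrix genes did. Ltbp2 was higher than at day 3 by 2.73 (adjusted p = 0.00326) and Mmp2 by 2.45 (adjusted p = 0.0106). Nkd2 read 6.25, 6.42 and 6.44 at day 3 and 7.71, 7.37 and 8.04 at day 14, so that day 7 was higher than day 3 by 3.28 (adjusted p = 6.38e-05) and higher than day 14 by 1.95 (adjusted p = 0.0268). Every day 7 array of Nkd2 lay above every array of the other 3 groups named here. The difference from day 14 lost its call without day 7 array 2 or day 14 arrays 1 or 2 (adjusted p up to 0.067). Aplnr, the apelin receptor gene of endothelium, read 3.31, 3.39 and 3.64 at day 3 and 8.49, 8.72 and 8.31 at day 7 (5.06, adjusted p = 0.023), a call that ended without any array but day 7 array 3 (adjusted p up to 0.0853). At day 14 its arrays split, at 8.66, 5.70 and 8.37. Against uninjured kidney Aplnr rose 31.9-fold, and of the other endothelial markers Eng alone rose (1.18), though not without any array but uninjured array 1 (adjusted p up to 0.0874).

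Several genes that were lower at day 7 than at day 3 lay near their uninjured level. Lrrn1, a leucine-rich neuronal membrane protein gene, read 9.47, 8.39 and 7.97 at day 3 and 3.19, 3.46 and 5.73 at day 7 (-4.48, adjusted p = 0.00426), with uninjured arrays at 3.21, 3.47 and 3.31. Day 7 array 3 was thus between the days. For Aldh1a1 the difference was -3.43 (adjusted p = 0.000102), for the inactive metalloprotease gene Adam22 -2.87 and for the fatty acid hydroxylase gene Cyp4a12a -2.74. None of these 4 genes passed against uninjured kidney. Adam22 was nevertheless not at its uninjured level in most arrays: it read 4.37, 4.93 and 5.19 at day 7 against 6.32, 6.27 and 4.85. It passed as lower without uninjured array 3 (-1.47, adjusted p = 0.0265). Mt1 (-1.35) and Agtr1a (-1.23) were lower than at day 3, and both calls ended without any array but day 7 array 3 (adjusted p up to 0.0927 and 0.144). Of the 35 cell cycle genes 4 were lower than at day 3, Rrm2 (-1.84), Kif20a (-1.67), Ccnb2 (-1.57) and Birc5 (-1.54), named after their values were seen. Each of these 4 calls ended without 4 or more of the 6 arrays in turn, day 3 array 2 and day 7 array 2 among them (adjusted p up to 0.146). The count of 94 was 31 without day 7 array 2, 180 without day 7 array 3 and 40, 44 and 50 without day 3 array 1, 2 and 3.

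Against day 14, 7 genes passed (0.0518%). Itih5, which stabilises hyaluronan matrix, read 7.77, 6.77 and 7.09 at day 7 and 4.72, 5.23 and 4.48 in uninjured kidney, and was 2.51 above day 14, where it read 4.68, 4.62 and 4.81 (adjusted p = 0.00735). Of the 6 named calls against day 14 this was the 1 that held with any array left out. Clca3a1 was higher than at day 14 by 3.29, the GTPase gene Gem by 2.33 and the RNA-binding Bicc1 by 1.15, and Epb41l4b was lower (-1.03). Each of these 4 calls ended without day 7 array 2 or day 14 array 1, and without 1 or 2 further arrays, with adjusted p up to 0.0887, 0.12, 0.111 and 0.0819. The seventh gene was Fam126a (1.64), named after its value was seen, and its call ended without array 2 or 3 of day 7 or array 1 or 2 of day 14 (adjusted p up to 0.12). The counts were 2 without day 7 array 2, 3 without day 14 array 1, 39 without day 7 array 1 and 50 without day 14 array 3.

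**Figure D5:**
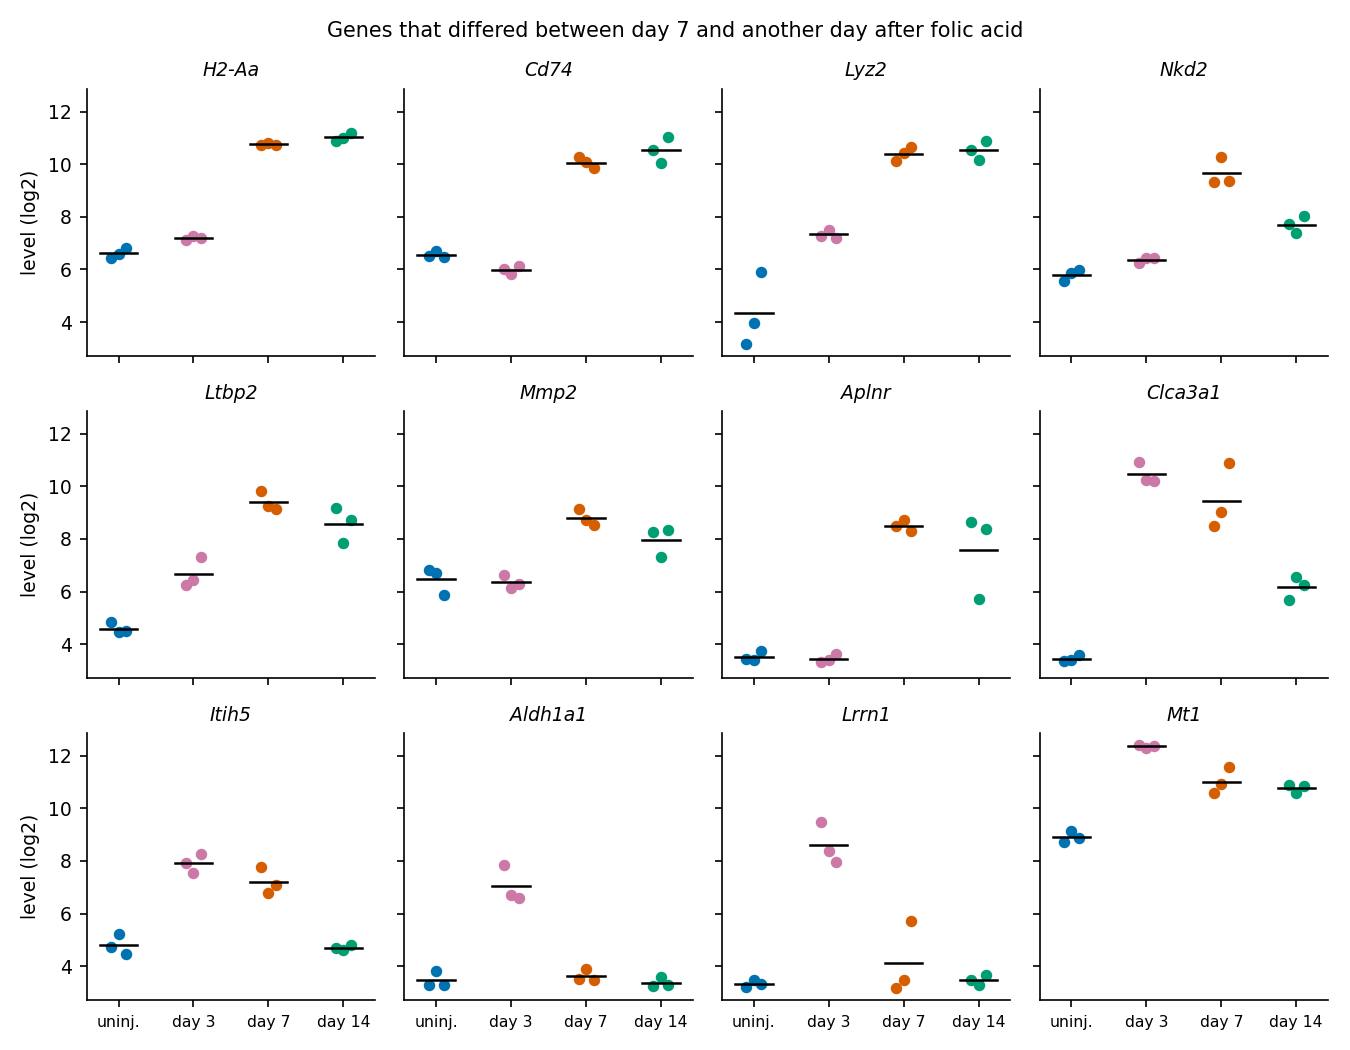
Log2 level of 12 genes that passed between day 7 and another day after folic acid, with each array as a point and a bar at the group mean, for uninjured kidney and days 3, 7 and 14. H2-Aa, Cd74 and Lyz2 step up between day 3 and day 7, Nkd2 is highest at day 7, and Aldh1a1 and Lrrn1 are high at day 3.

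The 3 day 7 arrays disagreed most in a few genes, given here as a description. Within the group the correlation across genes, which are not independent replicates, was 0.863 to 0.902, against 0.938 to 0.976 among uninjured arrays, and the median SD per gene was 0.29 against 0.19. The widest gene was Igkj1, an immunoglobulin light chain segment of plasma cells, at 3.85, 11.36 and 9.20, and it also varied in uninjured kidney (5.56, 8.17 and 8.16). Pck1, of gluconeogenesis, read 6.86, 9.46 and 4.09 at day 7. Spink1, a trypsin inhibitor, read 11.13, 9.92 and 5.41, and Ugt3a2, a conjugating enzyme of tubule, 10.60, 9.25 and 4.65. Ugt3a2 passed against uninjured kidney without day 7 array 1 (-4.66, adjusted p = 0.0171). In Spink1 and Ugt3a2 the arrays stood in the order of their proximal tubule means, and in Pck1 array 2 was the highest.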

How the data were processed

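RNA of sorted kidney fibroblasts was measured on 15 one-colour arrays. Per the submitters' processing notes the authors normalized with RMA, using affy and limma, and what they deposited is on a log2 intensity scale. Of 45141 probe sets 28898 name 1 gene in the annotation used, 551 several, and 15692 are not named. Per gene the probe set with the highest mean over all 15 arrays was kept. Genes above the 40th percentile in at least 3 arrays were tested.

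All 5 groups were fitted with limma 3.58.1 in R 4.3.3 (10 residual degrees of freedom), p-values were adjusted by Benjamini and Hochberg per contrast over the 13523 genes, and genes passed under 0.05. The script was tested on simulated data. No arrays were identical.

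Named genes were the 12 highest and 12 lowest called genes, the 5 highest and lowest against days 3 and 14, up to 4 called members of each list in each direction by p (or the 2 with the smallest p), 17 fixed genes and the 10 with the largest day 7 SD. Other genes are list members chosen after their values were seen. The members and lists were chosen with earlier results of these data known. Alternatives were scaling, filter, model, probe set rule, threshold, left-out arrays and, added later, marker covariates. Promoters came from RefSeq (GRCm38.p6), and motifs were searched on both strands.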

Additional observations from a re-analysis of the deposited data

Results flagged for a closer look

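These results stood out because a gene's difference from uninjured kidney at day 7 was not the same as at another day after folic acid, by the direct test between the days (limma, Benjamini-Hochberg adjusted over all genes tested). Among the named genes 26 passed against day 3 and 6 against day 14. With any 1 of the 6 arrays left out, 12 and 1 of them still passed.

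Above day 3 were the class II genes H2-Aa (3.56), H2-Eb1 (3.31), H2-Ab1 (3.96) and Cd74 (4.07), with Ly86 (3.52), Nkd2 (3.28), Ltbp2 (2.73) and Mmp2 (2.45), and these 8 passed with any array left out. Also above day 3 were the macrophage and lysosome genes Lyz2 (3.06), Ctss (2.77), C1qb (3.50), Fcer1g (1.99), Laptm5 (1.78) and Stab1 (1.67), with Aplnr (5.06), Lgi2 (2.72) and Fbn2 (2.13), and each of these 9 calls ended without 1 or more of the arrays. Below day 3 were Lrrn1 (-4.48), Aldh1a1 (-3.43), Adam22 (-2.87) and Cyp4a12a (-2.74), which passed with any array left out. Hrct1 (-2.65), Hpgd (-1.82), Gem (-1.74), Mt1 (-1.35) and Agtr1a (-1.23) were below day 3 too, and lost the call without all but 1 of the arrays in turn.

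Above day 14 were Clca3a1 (3.29), Itih5 (2.51), Gem (2.33), Nkd2 (1.95) and Bicc1 (1.15), and Epb41l4b was below it (-1.03). Of these, Itih5 passed with any array left out. Nkd2 was the only named gene higher at day 7 than at both other days. Gem was lower than at day 3 and higher than at day 14.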

How the results depend on the processing

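Against uninjured kidney 1580 genes passed, 619 at an adjusted p under 0.01, and 880 to 1622 with 1 array left out. Against day 3 the 94 calls became 16 with only the 6 arrays compared, 20 at an adjusted p under 0.01, and 31 to 180 with 1 array left out. Against day 14 the 7 calls became 0 with array weights (880 genes at an unadjusted p under 0.05) and 0 with only the 6 arrays compared (756 at that p). They became 4 with no filter on dim genes, 1 at an adjusted p under 0.01, and 2 to 50 with 1 array left out. The other settings (quantile normalization, median centring, trend, the 60th percentile, the mean of probe sets, a log2 minimum of 1) stayed within 1.5 times.

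For some named genes this report states that the call against uninjured kidney ended without single arrays. Of these calls, those of Canx, Cdh4, Ctnna1, Cubn, Cyp2j5, Egf, Eng, G6pc, Hao2, Kirrel, Ndufb9 and Plau also ended with only the 6 arrays compared. The same held for Enpep, Ptgfr and Vcan. Those of Canx, Crat, Ctnna1, Cubn, Eng and Plau ended with the mean of probe sets. Those of Ace, Canx, Eng and Ptgfr ended with quantile normalization, and those of Ctnna1, Cubn, Cyp2j5 and Ptgfr with median centring. Those of Cubn, Cyp2j5, Egf, Myh11 and Ptgfr ended with no filter on dim genes, that of Eng with array weights and that of Ctnna1 with the trend.

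The marker covariates were chosen after seeing the data. With the proximal tubule mean the counts were 716, 154 and 0 (982 at an unadjusted p under 0.05), and with the macrophage mean 17, 52 and 14. The macrophage mean reversed the sign of 20 named genes, none of which then passed: Aass 0.15, Acsm2 0.24, C1qa -0.70, Clec7a -0.49, Cubn 0.19, Cyp2j5 0.80, Dkk3 -0.37, Dnase1 0.75, Egf 0.83, Fgf2 -0.05, G6pc 0.68, Hao2 1.19, Igfbp6 -0.11, Il6st -0.17, Irf8 -0.58, Kl 0.78, Osmr -0.09, Rarres2 -0.17, Spry1 -0.21 and Ugt3a1 0.56. This covariate is a mean of myeloid genes such as Ctss, so it cannot test a macrophage gene such as C1qa. The cause of the reversals was not tested. Apart from the covariates, the settings tried gave 3158 values for named genes, of which 2820 kept direction and side of the threshold, 311 fell short of it, 27 newly passed and 0 reversed.

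No paired analysis was possible because the arrays of different groups share no replicate number in the labels. With 3 arrays a group, and with dim probe sets whose folds are compressed, small differences were not detectable.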

Other observations

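Of 15 S100 and annexin genes, which encode calcium-binding proteins, 6 rose at day 7 and none fell (median 0.89). S100a6 read 10.95, 11.46 and 11.08 against 7.57, 6.87 and 6.48 in uninjured kidney (18.3-fold, log2 4.19, SE 0.37, adjusted p = 2.5e-05). S100a16 read 8.64, 9.23 and 8.84 against 7.03, 6.62 and 6.76 (4.28-fold), and Anxa5, annexin A5, 9.27, 9.39 and 9.54 against 8.59, 7.90 and 7.47 (2.66-fold). In all 3 genes the groups did not overlap, which held for 33.7% of all genes tested. Of 15 prostaglandin genes, Ptgis, which makes prostacyclin, read 7.86, 7.78 and 7.73 against 5.36, 5.25 and 5.08 (5.89-fold), and Hpgd, which degrades prostaglandins, rose 3.99-fold. The receptor gene Ptgfr fell (-0.99), but not without any array but uninjured array 3 (adjusted p up to 0.177).

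Of 8 renin-angiotensin genes, Atp6ap2, the prorenin receptor, fell from 12.16, 12.12 and 12.17 to 11.30, 11.05 and 11.36 (1.89-fold lower), as did the receptor Agtr1a. Enpep (-2.33) lost its call without any array but day 7 array 1 (adjusted p up to 0.0907). Ace (0.68) rose, but not without day 7 array 1 or 2 or uninjured array 1 or 3 (adjusted p up to 0.0825). Of 18 Hox genes, whose pattern records body position, Hoxa11 rose from 5.32, 5.06 and 4.71 to 7.13, 6.21 and 7.01 (3.37-fold). The other 17 did not pass (list median -0.03), so that the share of risers was near the 7.5% over all genes tested. Of 11 hyaluronan genes, Cd44, the hyaluronan receptor, rose 4.67-fold and Vcan by 1.42, the latter not without any array but day 7 array 3 (adjusted p up to 0.0997).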
